A study of Homo sapiens with 12 samples.

Results

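Molecular chaperones are the proteins that help other proteins to fold, and the 81 genes described here are the chaperonins, heat shock proteins and cochaperones expressed in SHEP cells, out of 28576 genes in the deposited table. They were chosen by name: symbols of the CCT, HSP, DNAJ and BAG series together with TCP1, CHORDC1 and AHSA1, with no pseudogene and no antisense gene, without 4 genes of the endoplasmic reticulum stress response (HSPA5, HSP90B1, DNAJB9 and DNAJC3), and with at least 0.5 CPM (a gene's share of a library's reads, scaled to a sum of 1000000) in at least 3 libraries. The pattern matched 141 symbols, of which 47 were described as pseudogenes, 3 had antisense or divergent suffixes, 4 were the exceptions and 6 were below the expression threshold. CRYAB, a small heat shock protein that the rule names, was among those 6. Just outside the threshold stood HSPA7, whose third-highest library had 0.495 CPM, and just inside it HSPB6, whose third-highest library had 0.544 CPM.

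The cells were SHEP, a human neuroblastoma line, in 4 groups of 3 poly(A) RNA-seq libraries. All carried a fusion of MYCN to an estrogen receptor hormone-binding domain (MYCN-ER), which 4-hydroxytamoxifen (OHT, 200 nM) switches on, and a short hairpin RNA against TCEAL1 that doxycycline (Dox, 1 µg/ml) induces. OHT_Dox received both compounds, OHT and Dox received the compound of that name, and Ctrl received neither. The groups therefore ask what active MYCN-ER does to chaperone transcripts with TCEAL1 intact (OHT against Ctrl) or depleted (OHT_Dox against Dox), and what the hairpin does without (Dox against Ctrl) or with (OHT_Dox against OHT) active MYCN-ER. The labels give neither treatment times, nor whether the line is a clone, nor whether replicates were separate cultures, so the p-values rest on the spread among 12 libraries, which may be technical. Every contrast with OHT compares cells that also differ in exposure to the compound itself, and every contrast with Dox compares cells that also differ in doxycycline, and these cannot be told apart from MYCN-ER activity and from the hairpin.

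Newly made proteins meet several of these machines in turn. HSP70 proteins bind exposed stretches of a client and are driven through their ATP cycle by J-proteins (the DNAJ genes), which deliver clients and trigger hydrolysis, and by nucleotide exchange factors such as the BAG and HSP110 proteins, which reset the cycle. HSP90 takes over clients such as kinases and steroid receptors, the ring-shaped chaperonin TRiC folds actin and tubulin in the cytosol, and HSPD1 with its lid HSPE1 does the same kind of work in mitochondria. The heat-inducible members are controlled by heat shock factors, which bind inverted repeats of the unit GAA in promoters, while MYC proteins with their partner MAX bind the E-box.

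These 2 kinds of promoter sequence are shown first because the results below compare the genes that hold them. In RefSeq promoter windows of 250 bases before to 50 bases after a gene's start (GRCh38.p14), 73 of the 81 genes had at least 1 window and 8 had none. The perfect three-unit heat shock element was searched on both strands as GAANNTTC with either NNGAA directly after it or TTCNN directly before it. It was present in 8 of the 73 genes (10.96%), against 166 of 27305 genes with a window (0.608%). The letters GAANNTTC on their own, which every three-unit element includes, were in 20 of the 73 genes (27.4%) and in 8.21% of all genes. The 8 genes follow with the element in capitals, 1 element a gene, 5′ to 3′ on the gene's strand.

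DNAJA1: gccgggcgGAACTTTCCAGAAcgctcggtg

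DNAJB6: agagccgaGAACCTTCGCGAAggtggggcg

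HSPA6: cggaaaggTTCGCGAAAGTTCgcggcggcg

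HSPA8: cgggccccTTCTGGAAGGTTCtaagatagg

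CHORDC1: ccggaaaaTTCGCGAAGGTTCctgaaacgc

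HSP90AA1: gagggttcTTCCGGAAGGTTCgggaggctt

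HSP90AB1: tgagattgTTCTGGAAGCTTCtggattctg

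HSPD1: attttctgGAAAGTTCTGGAAccgagcgag

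The stretches lie at chr9:33025268-33025297 (DNAJA1, plus strand), chr7:157336865-157336894 (DNAJB6, plus), chr1:161524458-161524487 (HSPA6, plus), chr11:123062170-123062199 (HSPA8, minus), chr11:90223083-90223112 (CHORDC1, minus), chr14:102087111-102087140 (HSP90AA1, minus), chr6:44247823-44247852 (HSP90AB1, plus) and chr2:197500059-197500088 (HSPD1, minus). CHORDC1 held 3 overlapping matches, HSPA8 and HSP90AB1 held 2 separate ones each, and HSPD1 held 2 overlapping ones upstream of an alternative start. HSPA1B and DNAJB1, the stress-inducible HSP70 and its main J-protein partner, had no perfect three-unit match in their windows, which says only that these letters are not there.

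The E-box CACGTG, which reads the same on both strands, was present in 8 of the 73 genes (10.96%), against 8.77% of all genes with a window. HSPBAP1, which encodes a protein named for binding the small heat shock protein HSPB1, held 3 of them, as did 30 genes in all (0.110%) with 3 or more. They begin at positions -79, -14 and -3 from the RefSeq start, and are in capitals in the stretch from -100 to 10 around that start (chr3:122793822-122793931, minus strand).

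HSPBAP1: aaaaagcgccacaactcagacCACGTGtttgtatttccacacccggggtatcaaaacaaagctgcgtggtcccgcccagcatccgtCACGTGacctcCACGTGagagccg

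HSPD1 and HSPE1, which encode the mitochondrial chaperonin and its lid, are transcribed away from each other, and the 104 bases between their RefSeq starts (chr2:197500275-197500378, shown on the plus strand, towards HSPE1) hold 1 E-box. It begins at position -22 from the start of HSPE1 and -88 from that of HSPD1.

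Between HSPD1 and HSPE1: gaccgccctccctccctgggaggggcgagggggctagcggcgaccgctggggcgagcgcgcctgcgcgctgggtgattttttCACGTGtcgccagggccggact

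The other E-box genes were HSPA9, DNAJC8 (2 E-boxes), DNAJC12, DNAJC16 and HSPE1-MOB4, whose start is that of HSPE1.

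Each library held between 44466458 and 57694970 reads assigned to genes. TCEAL1, the hairpin's target, stood at 2.58, 2.50 and 1.73 CPM in the OHT_Dox libraries, 8.23, 9.75 and 8.99 CPM in the OHT libraries, 2.62, 2.54 and 2.74 CPM in the Dox libraries and 9.71, 9.11 and 10.7 CPM in the Ctrl libraries, so every library with Dox was below every library without it. MYCN reads, which can come from the fusion gene as well as the resident gene, lay between 376 and 644 CPM in all 12 libraries, and OHT acts on the fusion protein, so this level is no check of its activity. MYCN fell in OHT_Dox against Dox (-0.34 ± 0.10 (SE), adjusted p = 0.0191), with 425 ± 47.4 CPM in OHT_Dox against 538 ± 25.4 CPM in Dox (SD, n = 3 each), while edgeR gave an adjusted p of 0.0306 and DESeq2 did not call it. Of the 7 mesenchymal neuroblastoma markers all were expressed (summed level 3306 to 4349 CPM), of the 7 adrenergic markers 3 passed the expression threshold (67.6 to 84.5 CPM) and DBH was near 0, and the epithelial and haematopoietic list amounted to the keratins KRT8 and KRT18 (832 to 1448 CPM). OHT_Dox replicate 3 and Dox replicate 1 deviated most with the GC content of genes, with Spearman correlations of 0.47 and -0.35 across genes. The Dox libraries were all negative, at -0.35, -0.30 and -0.10, against -0.08, 0.007 and 0.21 in Ctrl. The OHT libraries had 0.04, -0.01 and 0.11, and the OHT_Dox libraries 0.12, -0.15 and 0.47. The trend thus differed between groups as well, and its part in the changes was not tested.

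The 81 genes spanned more than 3 orders of magnitude in CPM. HSP90AA1 averaged 3724 CPM over the 12 libraries, HSP90AB1 3426 CPM, HSPA8 2875 CPM and HSPD1 1567 CPM. In all 31 genes averaged over 100 CPM and 11 averaged under 5 CPM, among them HSPA1A at 0.701 CPM and HSPB6 at 0.432 CPM. Without 2 readthrough genes, HSPE1-MOB4 and DNAJC25-GNG10, whose reads are also counted elsewhere (DNAJC25 and its readthrough stood at 99.8 CPM each), the remaining 79 summed to 21919 ± 539 CPM in the OHT_Dox group, 22004 ± 723 CPM in the OHT group, 21753 ± 489 CPM in the Dox group and 22767 ± 1278 CPM in the Ctrl group (SD, n = 3 each). The sum was between 2.12% and 2.42% of all reads in every library, and the highest was Ctrl replicate 2, which also had the highest HSP90AA1, HSP90AB1 and HSPD1 levels. Bulk libraries cannot tell fewer cells that express a gene from less RNA per cell.

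A minority of chaperone transcripts changed with OHT, most of them J-proteins, HSP70 relatives and exchange factors. J-proteins alone were 40 of the 81 genes. The abundant TRiC, HSP60 and HSP90 genes were not called with OHT by limma, edgeR or DESeq2. With TCEAL1 intact 7 of the 81 genes rose and 10 fell, where 12.6% of the 18674 genes tested rose and 8.79% fell (limma on log2(CPM + 0.5), Benjamini-Hochberg adjusted p below 0.05 over all genes tested). Under the hairpin 5 rose and 12 fell, where 11.5% of all genes tested rose and 14.5% fell. Rescaling the libraries by trimmed means (TMM) turned that split into 9 higher and 10 lower, and edgeR's quasi-likelihood test on the recovered reads gave 10 and 10. Over all genes tested edgeR called 2541 higher and 2194 lower there, where limma called 2153 and 2709. The totals are near the background. The median log2 change of the 81 was -0.03 in OHT against Ctrl and -0.02 in OHT_Dox against Dox, against -0.01 and -0.03 over all genes tested. No called change exceeded 2-fold in any of the 4 comparisons, and 55 of the 81 were called in none.

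**Figure D1:**
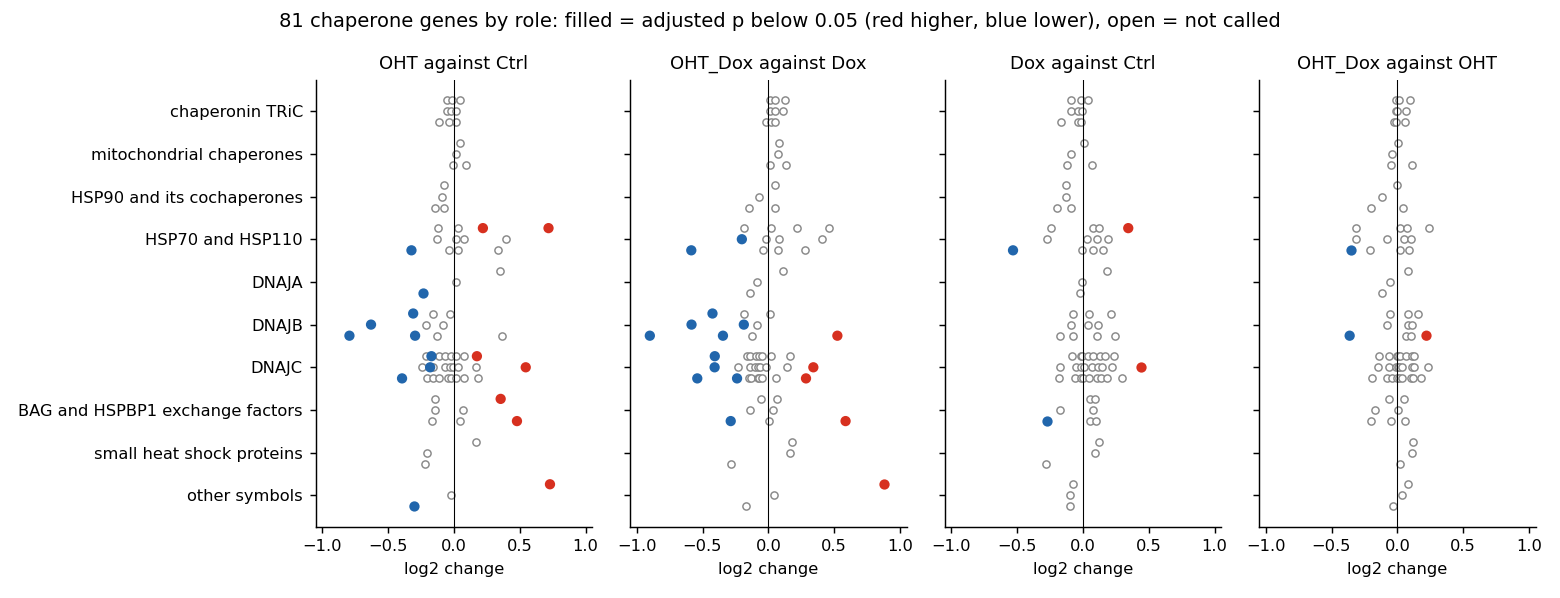
Log2 change of each of the 81 genes (x axis, log2(CPM + 0.5) scale) by role (rows) in the 4 comparisons (panels). Filled points passed an adjusted p of 0.05, red higher and blue lower, and open points did not. The TRiC, mitochondrial and HSP90 rows hold open points in every panel, and the DNAJB row holds 4 and 5 blue points in the panels for OHT.

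TRiC is built from 8 different subunits, each present in every ring, and all 8 of their genes were strongly expressed. Per kilobase of annotated exon, a scale on which genes can be compared, levels in OHT_Dox, OHT, Dox and Ctrl ran at 396, 371, 393 and 384 CPM per kb for CCT3 and at 305, 293, 296 and 316 for CCT7. CCT6A stood between 253 and 258 CPM per kb, and CCT2, CCT4, CCT8 and TCP1 between 184 and 211, and the order of these 4 changed from group to group. CCT5 was lowest at 142 to 146 CPM per kb, but its annotated length includes 1757 bases shared with an antisense gene. CCT6B, a tissue-restricted copy of CCT6A, was at 4.34 to 4.92 CPM per kb.

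None of the 9 TRiC genes was called in any of the 4 comparisons, by limma, edgeR or DESeq2, and none reached an unadjusted p below 0.05. CCT2, a subunit of the ring, had 467, 515 and 509 CPM in OHT against 472, 523 and 479 CPM in Ctrl, and 502, 531 and 474 CPM in OHT_Dox against 492, 496 and 470.1 CPM in Dox. CCT3 had 797, 880.3 and 844 CPM in OHT against 866, 862 and 877 CPM in Ctrl, and 907, 899.7 and 885 CPM in OHT_Dox against 909, 883 and 878 CPM in Dox. The groups of both genes overlapped with OHT. Without CCT6B the 8 subunits changed by -0.11 to 0.05 on the log2 scale in OHT against Ctrl, with 95% intervals reaching from -0.24 to 0.16, and by -0.02 to 0.11 in OHT_Dox against Dox, with intervals reaching from -0.13 to 0.22. In Dox against Ctrl their changes were -0.09 to 0.04 and in OHT_Dox against OHT -0.03 to 0.10. Their median log2 changes were -0.02, 0.03, -0.03 and 0.0044 in these 4 comparisons, in the order named. The medians over all genes tested were -0.01, -0.03, 0.05 and 0.02. TCP1 had the largest difference among them with OHT under the hairpin, 0.11 ± 0.05 (SE), adjusted p = 0.157, and with the trends of each library with GC content and length removed, a setting added after the data were seen, it was called there (0.13, adjusted p = 0.0288, limma). Reads of TCP1 can also come from ACAT2, and those of CCT4 from an antisense gene listed at 445 CPM, since each shares exonic bases with its neighbour on the opposite strand and the strand setting of the counting is not given in the sources used here.

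**Figure D2:**
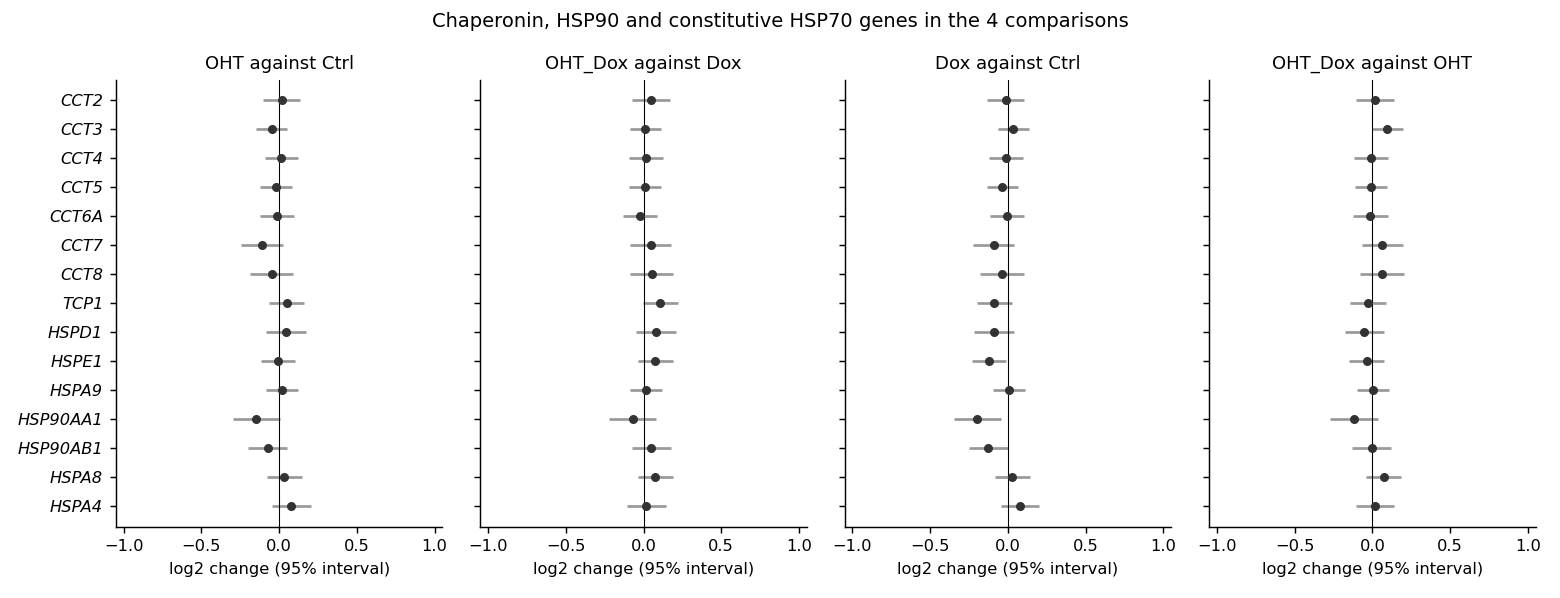
Log2 change (x axis) with its 95% interval of the 8 TRiC subunits, the mitochondrial chaperones HSPD1, HSPE1 and HSPA9, the HSP90 pair and HSPA8 and HSPA4 (rows) in the 4 comparisons (panels), on the axis range used for all 81 genes. In OHT against Ctrl the 8 TRiC points lie between -0.11 and 0.05.

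None of the 4 mitochondrial chaperone genes was called with OHT. HSPD1, the mitochondrial HSP60, had 1559, 1682 and 1647 CPM in OHT against 1532, 1738 and 1477 CPM in Ctrl, and 1589, 1638 and 1490.4 CPM in OHT_Dox against 1499, 1516 and 1440.4 CPM in Dox. The groups overlapped both times, with log2 changes of 0.04 ± 0.06 and 0.08 ± 0.06 (SE) and 95% intervals of -0.08 to 0.17 and -0.05 to 0.21. HSPE1, its lid, changed by -0.01 ± 0.05 and 0.08 ± 0.05, and its reads cannot be separated from those of the readthrough gene HSPE1-MOB4 (295.6 CPM on average, against 277 CPM for HSPE1). HSPA9, the mitochondrial HSP70, changed by 0.02 ± 0.05 and 0.02 ± 0.05. DNAJA3, the J-protein of mitochondria, had 133, 139 and 142 CPM in OHT_Dox against 129.97, 123.15 and 125 CPM in Dox. These groups did not overlap, and the log2 change was 0.13 ± 0.05 (SE), adjusted p = 0.0729, while edgeR gave an adjusted p of 0.0333, so that its call depends on the test.

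Among 12 other genes of mitochondrial protein quality control, all measured, 2 rose and none fell in OHT against Ctrl, and 4 rose and 2 fell in OHT_Dox against Dox. That is 16.7% and 50% of the list called, where 21.4% and 26.0% of all genes tested were. GRPEL1, the nucleotide exchange factor of HSPA9, had a log2 change of 0.51 ± 0.06 (SE), adjusted p = 4.95e-06 in OHT against Ctrl and of 0.60 ± 0.06 (SE), adjusted p = 6.59e-07 in OHT_Dox against Dox. AFG3L2, a protease of the inner membrane, had log2 changes of 0.35 ± 0.05 and 0.35 ± 0.05, with adjusted p = 8.21e-05 and 6.54e-05. In Dox against Ctrl 1 of the 12 rose (YME1L1, 0.17 ± 0.05 (SE), adjusted p = 0.0468, not called by edgeR or DESeq2), and in OHT_Dox against OHT none was called, reached an unadjusted p below 0.05, or was called by edgeR or DESeq2.

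Prefoldin and the phosducin-like proteins hand clients to TRiC. Of 12 genes tested on that list, 1 rose and 2 fell in OHT against Ctrl, and 2 rose and 1 fell in OHT_Dox against Dox. That is 25% called each time, near the 21.4% and 26.0% of all genes tested. URI1, a prefoldin-like subunit, rose in both (0.37 ± 0.05 and 0.30 ± 0.05 on the log2 scale), and PDCL, a phosducin-like protein, fell in both (-0.38 ± 0.07 and -0.49 ± 0.07). The adjusted p was at most 3.60e-04 for each of these. Of 13 tubulin and actin genes, which encode TRiC's main clients, 2 fell in OHT against Ctrl and 3 rose in OHT_Dox against Dox. That is 15.4% and 23.1% of them called, no more than the shares of all genes tested in both directions together. Over all genes tested 8.79% fell in OHT against Ctrl and 11.5% rose in OHT_Dox against Dox. In OHT_Dox against Dox TUBB2A changed by 0.33 ± 0.07 (SE), adjusted p = 0.00135 and TUBB2B by 0.34 ± 0.09 (SE), adjusted p = 0.00663. In Dox against Ctrl TUBB3 (-0.35 ± 0.07 (SE), adjusted p = 0.00971) and TUBA1A (-0.24 ± 0.06 (SE), adjusted p = 0.0284) were the 2 that fell, and TUBB3 and TUBA1A were also the 2 in OHT against Ctrl. In OHT_Dox against OHT none of the tubulin and actin genes and 1 prefoldin-like gene (PDRG1, 0.30 ± 0.07 (SE), adjusted p = 0.0143) were called, and in Dox against Ctrl none of the prefoldin list was called by limma or edgeR, 1 had an unadjusted p below 0.05, and DESeq2 called 1, UXT (named after its value was seen).

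The 4 genes of the HSP90 group were not called with OHT either. HSP90AA1, the stress-responsive cytosolic HSP90, had 3520.1, 3919 and 3742 CPM in OHT against 3888, 4691 and 3836 CPM in Ctrl, with a log2 change of -0.15 ± 0.07 (SE), adjusted p = 0.167. The highest of these values, 4691 CPM, is Ctrl replicate 2, and the groups overlapped. HSP90AB1, the constitutive form, changed by -0.07 ± 0.06 in OHT against Ctrl and 0.05 ± 0.06 in OHT_Dox against Dox. AHSA1, which stimulates the ATPase of HSP90, changed by -0.09 ± 0.05 and 0.05 ± 0.05, and CHORDC1, another HSP90 cochaperone, by -0.07 ± 0.07 and -0.15 ± 0.07.

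Of 24 partners of HSP90 and HSP70 outside the name rule, all measured, 5 rose and none fell in OHT against Ctrl, and 7 rose and none fell in OHT_Dox against Dox. That is 20.8% and 29.2% of the list called, near the 21.4% and 26.0% of all genes tested in both directions together. By direction it is not near: 12.6% and 11.5% of all genes tested rose, and 8.79% and 14.5% fell. FKBP5 and FKBP4, immunophilins that sit on HSP90 with steroid receptors, had log2 changes of 0.61 ± 0.06 (SE), adjusted p = 1.47e-07 and 0.25 ± 0.05 (SE), adjusted p = 8.98e-04 in OHT against Ctrl. In OHT_Dox against Dox FKBP5 changed by 0.45 ± 0.06 (SE), adjusted p = 6.84e-06, and SGTA, a cochaperone of HSP70 and HSP90, by 0.42 ± 0.06 (SE), adjusted p = 1.47e-05. In Dox against Ctrl FKBP5 (0.26 ± 0.06) and TTI1 (0.28 ± 0.06) rose and STUB1, a ubiquitin ligase that works with HSP70, fell (-0.23 ± 0.07, adjusted p = 0.0374). In OHT_Dox against OHT none of the 24 was called by limma, edgeR or DESeq2, and 2 had an unadjusted p below 0.05. The heat shock factor list (HSF1, HSF2, HSF4 and HSBP1 tested) had no call by limma in any comparison. HSF1, the main factor of the heat shock response, changed by 0.18 ± 0.07 (SE), adjusted p = 0.0519 in OHT_Dox against Dox, where edgeR gave an adjusted p of 0.0277, and 1 gene each in that comparison and in OHT_Dox against OHT had an unadjusted p below 0.05.

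Among the 12 HSP70 and HSP110 genes, 2 rose and 1 fell in OHT against Ctrl and 2 fell in OHT_Dox against Dox, near the shares of all genes tested (12.6% and 8.79%, and 11.5% and 14.5%), and the constitutive HSP70s were not among them. HSPA8, the constitutive cytosolic HSP70, had 2758, 2941 and 2866 CPM in OHT against 2775, 2830.3 and 2769.5 CPM in Ctrl, and 2983, 3100.1 and 2925 CPM in OHT_Dox against 2981, 2887 and 2685 CPM in Dox, with overlapping groups and log2 changes of 0.03 ± 0.05 and 0.08 ± 0.05. HSPA4, an HSP110-type exchange factor, changed by 0.08 ± 0.06 and 0.02 ± 0.06. HSPA13, a microsomal HSP70 relative, had 56.0, 53.6 and 53.6 CPM in OHT against 74.4, 67.2 and 63.2 CPM in Ctrl, and 53.5, 55.9 and 45.9 CPM in OHT_Dox against 82.8, 79.3 and 71.2 CPM in Dox. Every library with OHT was below every library of its counterpart without OHT, with log2 changes of -0.32 ± 0.08 (SE), adjusted p = 0.00531 in OHT against Ctrl and -0.59 ± 0.08 (SE), adjusted p = 1.59e-05 in OHT_Dox against Dox.

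HSPA6, an HSP70 that is nearly silent without heat stress, had 6.003, 5.33 and 3.84 CPM in OHT against 3.27, 2.80 and 2.46 CPM in Ctrl, and 4.596, 3.49 and 3.69 CPM in OHT_Dox against 3.21, 2.75 and 2.52 CPM in Dox. The groups did not overlap in either pair. The log2 change was 0.72 ± 0.16 (SE), adjusted p = 0.00253 in OHT against Ctrl and 0.41 ± 0.16 (SE), adjusted p = 0.0646 in OHT_Dox against Dox, where edgeR gave an adjusted p of 0.0459. Its reads are uncertain because HSPA7 is a near-identical copy. HSPA12A, named after its value was seen, changed by 0.34 ± 0.12 and 0.28 ± 0.12 (SE) in these comparisons. It was not called by limma (adjusted p = 0.0552 and 0.0998). It was called in both by edgeR (adjusted p = 0.0332 and 0.0437) and by DESeq2 (adjusted p = 0.0217 and 0.0362). HSPA4L, another HSP110-type gene, rose in OHT against Ctrl (0.22 ± 0.07 (SE), adjusted p = 0.0365) and had -0.02 ± 0.07 (SE), adjusted p = 0.874 in OHT_Dox against Dox. Its call in OHT against Ctrl was lost with no filter on low values and when Ctrl replicate 2, Ctrl replicate 3, OHT replicate 1, OHT replicate 3 or OHT_Dox replicate 1 was left out. HSPH1, the inducible HSP110, fell in OHT_Dox against Dox (-0.20 ± 0.06 (SE), adjusted p = 0.0253), a call absent under TMM rescaling, edgeR and DESeq2 and without Dox replicate 1, Dox replicate 2, OHT_Dox replicate 1 or OHT_Dox replicate 3. That call was also absent with GC and length trends removed. HSPA1B and HSPA1A, the near-identical stress-inducible pair, were not called with OHT, and HSPA1B had 0.21 ± 0.09 (SE), adjusted p = 0.0720 in OHT_Dox against Dox, where edgeR gave an adjusted p of 0.0357.

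**Figure D3:**
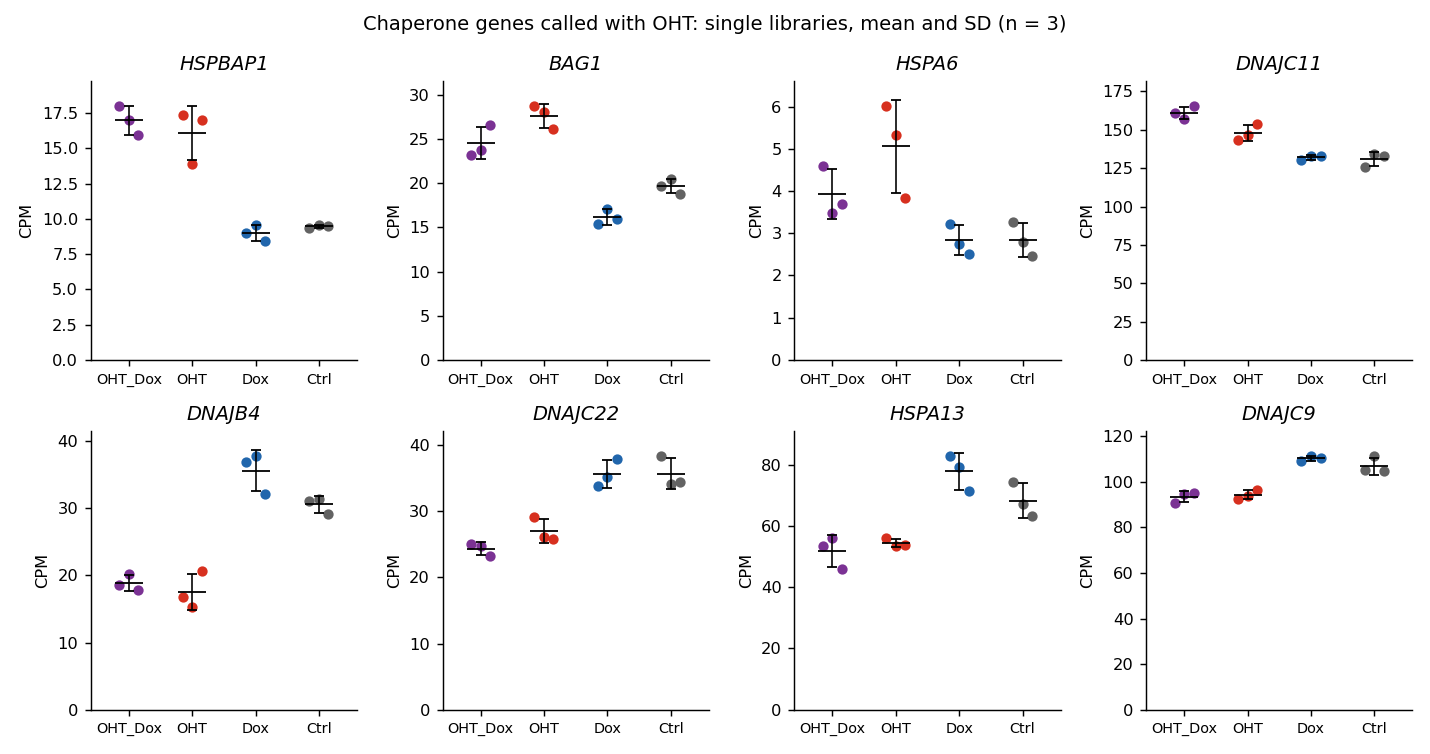
CPM (y axis, from 0) of 8 genes called with OHT, by group (x axis); points are single libraries, and bars are the mean and SD of 3. HSPBAP1, BAG1, HSPA6 and DNAJC11 (top row) are higher, and DNAJB4, DNAJC22, HSPA13 and DNAJC9 (bottom row) lower, in every OHT_Dox library than in every Dox library and in every OHT library than in every Ctrl library.

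J-proteins, 40 of the 81 genes, supplied the largest number of calls. Of the 40 DNAJ genes, DNAJA3 included, 2 rose and 8 fell in OHT against Ctrl, and 3 rose and 9 fell in OHT_Dox against Dox. That is 25% and 30% of them called, near the 21.4% and 26.0% of all genes tested in both directions together. The split was not near: most DNAJ calls were falls, where 12.6% and 11.5% of all genes tested rose and 8.79% and 14.5% fell. Of the 10 class B genes, 4 fell in OHT against Ctrl and 5 fell in OHT_Dox against Dox, where 8.79% and 14.5% of all genes tested fell. DNAJB4, a cytosolic J-protein, had 16.7, 15.4 and 20.6 CPM in OHT against 31.1, 31.4 and 29.1 CPM in Ctrl, and 18.5, 20.2 and 17.8 CPM in OHT_Dox against 36.9, 37.8 and 32.2 CPM in Dox. The libraries with OHT stood far below those without it in both pairs, with log2 changes of -0.79 ± 0.09 (SE), adjusted p = 4.80e-06 and -0.90 ± 0.09 (SE), adjusted p = 1.01e-06. These are the largest falls among the 81 genes in those comparisons, and they passed under all 23 alternative settings.

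DNAJB11, a J-protein of the endoplasmic reticulum lumen, had 84.4, 85.3 and 87.1 CPM in OHT against 102, 110.5 and 103 CPM in Ctrl, and 97.0, 106 and 96.8 CPM in OHT_Dox against 116, 116 and 109 CPM in Dox. It fell both times (-0.29 ± 0.06 (SE), adjusted p = 7.11e-04, and -0.19 ± 0.06 (SE), adjusted p = 0.0178), and it shares 381 exonic bases with TBCCD1 on the other strand. The second call was absent under TMM rescaling, edgeR and DESeq2 and without Dox replicate 1, Dox replicate 2, OHT_Dox replicate 1 or OHT_Dox replicate 3. Of the 4 endoplasmic reticulum genes that the name rule leaves out, none was called in OHT against Ctrl by limma, where 1 had an unadjusted p below 0.05. In OHT_Dox against Dox DNAJC3 (-0.29 ± 0.07 (SE), adjusted p = 0.00374) and DNAJB9 (-0.31 ± 0.10 (SE), adjusted p = 0.0251) fell, while HSPA5 (-0.01 ± 0.05) and HSP90B1 (-0.00035 ± 0.07) were not called. DNAJC3 rose in Dox against Ctrl (0.23 ± 0.07 (SE), adjusted p = 0.0482, not called by edgeR), and in OHT_Dox against OHT none of the 4 was called by limma, edgeR or DESeq2 or had an unadjusted p below 0.05. DNAJB2, known from neurons, fell in OHT against Ctrl (-0.31 ± 0.06 (SE), adjusted p = 0.00140), with 31.9, 33.5 and 33.0 CPM in OHT against 40.2, 40.7 and 41.3 CPM in Ctrl. Its change in OHT_Dox against Dox was -0.13 ± 0.06 (SE), adjusted p = 0.152, and it was called with GC and length trends removed (-0.21, adjusted p = 0.00470, limma). DNAJB14, a J-protein of the endoplasmic reticulum membrane, fell in OHT_Dox against Dox (-0.42 ± 0.09 (SE), adjusted p = 0.00157), and its log2 change in OHT against Ctrl was -0.12 ± 0.09 (SE), adjusted p = 0.361. DNAJB5 and DNAJB13, below 5 CPM and named after their values were seen, had called changes too. DNAJB5 fell in both pairs (-0.63 ± 0.15 and -0.58 ± 0.15), and DNAJB13 rose in OHT_Dox against Dox (0.52 ± 0.17 (SE), adjusted p = 0.0317), with reads that an antisense gene at nearly the same level may share.

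DNAJB1, the classical HSP40 and partner of stress-inducible HSP70, had 195, 185 and 198 CPM in OHT_Dox against 259.6, 236 and 239.5 CPM in Dox, where the groups did not overlap. Without the hairpin they did, at 268, 252 and 225 CPM in OHT against 292, 255 and 284 CPM in Ctrl. The log2 changes were -0.34 ± 0.07 (SE), adjusted p = 6.64e-04 and -0.16 ± 0.07 (SE), adjusted p = 0.0979, and the difference between them was -0.19 ± 0.09 (SE), adjusted p = 0.345. DNAJA1, a cytosolic J-protein whose window holds a heat shock element, fell in OHT against Ctrl (-0.24 ± 0.06 (SE), adjusted p = 0.00918), a call that was lost without Ctrl replicate 2 or OHT replicate 1. In OHT_Dox against Dox its log2 change was -0.14 ± 0.06 (SE), adjusted p = 0.114.

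Class C J-proteins serve single sites or complexes rather than bulk folding, and of the 26 genes 2 rose and 3 fell in OHT against Ctrl and 2 rose and 4 fell in OHT_Dox against Dox, again near the shares of all genes tested (12.6% and 8.79%, and 11.5% and 14.5%). DNAJC22, a membrane J-protein, had 29.2, 26.2 and 25.9 CPM in OHT against 38.4, 34.2 and 34.5 CPM in Ctrl, and 25.1, 24.7 and 23.3 CPM in OHT_Dox against 33.8, 35.2 and 37.9 CPM in Dox. It fell in both, by log2 changes of -0.39 ± 0.07 (SE), adjusted p = 6.78e-04 and -0.54 ± 0.07 (SE), adjusted p = 2.26e-05. DNAJC9, a chaperone of histones H3 and H4, had 92.6, 93.9 and 96.6 CPM in OHT against 105, 111 and 105 CPM in Ctrl, and 90.8, 94.5 and 95.3 CPM in OHT_Dox against 109, 111 and 110.5 CPM in Dox. It fell slightly in both (-0.18 ± 0.05 and -0.24 ± 0.05), the first call being lost without Ctrl replicate 2 or OHT replicate 1, and an antisense gene at nearly the same level may share its reads.

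DNAJC11, a mitochondrial J-protein, had 143, 147 and 154 CPM in OHT against 125, 134 and 133 CPM in Ctrl, and 161, 157 and 165 CPM in OHT_Dox against 130.10, 133 and 133 CPM in Dox. It rose in both (0.17 ± 0.05 (SE), adjusted p = 0.0176, lost without Ctrl replicate 1 or OHT replicate 3, and 0.29 ± 0.05 (SE), adjusted p = 3.09e-04), and it shares 1419 exonic bases with THAP3 on the other strand. DNAJC2, a J-protein of the ribosome, rose in OHT_Dox against Dox (0.34 ± 0.07 (SE), adjusted p = 0.00103), with 104, 111 and 99.4 CPM in OHT_Dox against 79.1, 84.2 and 84.7 CPM in Dox. Its log2 change in OHT against Ctrl was 0.18 ± 0.07 (SE), adjusted p = 0.0709, and it was called there without Ctrl replicate 2 (adjusted p = 0.0117) or without OHT replicate 1 (adjusted p = 0.0468). DNAJC6, the neuronal auxilin that uncoats clathrin vesicles with HSP70, rose in OHT against Ctrl (0.55 ± 0.09 (SE), adjusted p = 3.11e-04), with 30.03, 26.8 and 29.1 CPM in OHT against 22.9, 17.9 and 17.9 CPM in Ctrl. In OHT_Dox against Dox its log2 change was 0.17 ± 0.09 (SE), adjusted p = 0.214, and it was called with GC and length trends removed (0.25, adjusted p = 0.0186, limma). DNAJC13, which works on endosomes, and DNAJC18, of the endoplasmic reticulum membrane, fell in OHT_Dox against Dox (-0.41 ± 0.10 and -0.41 ± 0.09, adjusted p = 0.00370 and 0.00148). In OHT against Ctrl they changed by -0.07 ± 0.10 and -0.16 ± 0.09 and were not called. DNAJC8, a J-protein of the spliceosome with 2 E-boxes, fell in OHT against Ctrl (-0.17 ± 0.06 (SE), adjusted p = 0.0450). That call was absent under TMM rescaling, edgeR and DESeq2 and without any of 7 single libraries (Ctrl replicates 2 and 3, OHT replicates 1 and 3, Dox replicates 2 and 3, and OHT_Dox replicate 1).

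Of the 7 exchange factors of the BAG and HSPBP1 group, 2 rose and none fell in OHT against Ctrl, and 1 rose and 1 fell in OHT_Dox against Dox, where 12.6% and 8.79%, and 11.5% and 14.5%, of all genes tested did. BAG1, which releases ADP from HSP70 and links it to the proteasome, had 28.7, 28.0 and 26.1 CPM in OHT against 19.7, 20.5 and 18.8 CPM in Ctrl, and 23.2, 23.8 and 26.6 CPM in OHT_Dox against 15.4, 17.1 and 15.99 CPM in Dox. Every library with OHT was above every library without it in both pairs, with log2 changes of 0.48 ± 0.08 (SE), adjusted p = 1.62e-04 and 0.59 ± 0.08 (SE), adjusted p = 1.62e-05. BAG5, a BAG protein with several BAG domains, rose in OHT against Ctrl (0.36 ± 0.08 (SE), adjusted p = 0.00225), with 58.0, 47.9 and 49.1 CPM in OHT against 43.2, 38.0 and 39.4 CPM in Ctrl. In OHT_Dox against Dox the groups overlapped, at 43.8, 47.0 and 43.9 CPM in OHT_Dox against 40.9, 46.0 and 42.0 CPM in Dox, and the log2 change was 0.06 ± 0.08 (SE), adjusted p = 0.605. BAG4, known to bind the TNF receptor, fell in OHT_Dox against Dox (-0.29 ± 0.07 (SE), adjusted p = 0.00586), which did not pass when Dox replicate 1 and OHT_Dox replicate 3 were left out together. BAG3, the stress-induced member that acts in selective autophagy, changed by -0.14 ± 0.06 and -0.14 ± 0.06 and was not called by limma (adjusted p = 0.0802 and 0.0692), although its groups did not overlap in either pair. DESeq2 called it in OHT against Ctrl (adjusted p = 0.0466), as did limma without Ctrl replicate 2 (adjusted p = 0.0490), and with GC and length trends removed it was called in OHT_Dox against Dox (-0.22, adjusted p = 0.00103, limma).

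HSPBAP1 had the largest called log2 change upward in OHT_Dox against Dox and, with HSPA6, one of the 2 largest in OHT against Ctrl, where edgeR put HSPA6 first (0.83, against 0.76 for HSPBAP1). It stood at 17.4, 13.9 and 17.0 CPM in OHT against 9.33, 9.57 and 9.50 CPM in Ctrl, and at 18.0, 17.0 and 15.97 CPM in OHT_Dox against 9.01, 9.56 and 8.42 CPM in Dox. The lowest library with OHT was well above the highest without it, and the log2 changes were 0.73 ± 0.10 (SE), adjusted p = 1.48e-05 and 0.88 ± 0.10 (SE), adjusted p = 1.52e-06. This is the gene whose 3 E-boxes are shown above. The other 7 genes with an E-box had no such rise: DNAJC8 fell slightly in OHT against Ctrl, and HSPD1, HSPE1, HSPE1-MOB4, HSPA9, DNAJC12 and DNAJC16 were not called with OHT (HSPE1-MOB4 was in OHT_Dox against Dox with GC and length trends removed, at 0.14). Of the 8 genes with a three-unit heat shock element, HSPA6 rose and DNAJA1 fell in OHT against Ctrl, none was called in OHT_Dox against Dox by limma (edgeR and DESeq2 called HSPA6), and 6 were called in neither. Over all genes tested 12.6% rose and 8.79% fell in OHT against Ctrl, and 11.5% rose and 14.5% fell in OHT_Dox against Dox. HSPD1, HSPE1 and HSPE1-MOB4 share 1 E-box. Both counts are descriptions of letters in these windows, and a link between the letters and the changes was not tested. HSPB11, which despite its symbol encodes an intraflagellar transport protein, fell in OHT against Ctrl (-0.30 ± 0.08 (SE), adjusted p = 0.0123, lost without Ctrl replicate 2 or OHT replicate 3) and changed by -0.17 ± 0.08 in OHT_Dox against Dox. HSPB1, the abundant small heat shock protein HSP27, was not called with OHT when all 12 libraries were used as deposited: its log2 change was -0.21 ± 0.09 (SE), adjusted p = 0.108 in OHT against Ctrl and 0.18 ± 0.09 (SE), adjusted p = 0.151 in OHT_Dox against Dox. It was called lower in OHT against Ctrl without Ctrl replicate 1 (-0.31, adjusted p = 0.0144, limma) and with GC and length trends removed (-0.19, adjusted p = 0.0278, limma). It was called higher in OHT_Dox against Dox without OHT_Dox replicate 2 (0.28, adjusted p = 0.0242, limma). HSPB8, another small heat shock protein, named after its value was seen, changed by 0.17 ± 0.06 and 0.16 ± 0.06 (SE) in these comparisons. Its groups did not overlap in either, and limma did not call it (adjusted p = 0.0545 and 0.0554). DESeq2 called HSPB8 in both (adjusted p = 0.0444 and 0.0113), and edgeR in OHT_Dox against Dox (adjusted p = 0.0210).

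Chaperone genes called with OHT kept their sign with and without the hairpin about as often as all genes called. The 2 comparisons share no library, but each gene's spread comes from 1 fit of all 12 libraries, so their calls are not independent. In all 9 genes were called in both, all in the same direction: HSPBAP1, BAG1 and DNAJC11 were higher, and DNAJB4, DNAJB5, DNAJB11, DNAJC9, DNAJC22 and HSPA13 lower. Those 9 are 52.9% of the 17 genes called in each comparison, where over all genes tested 60.7% of those called in OHT against Ctrl and 49.9% of those called in OHT_Dox against Dox were called in both. Of the 17 called in OHT against Ctrl, 16 had the same sign in OHT_Dox against Dox. HSPA4L was the exception, and with GC and length trends removed it was positive and called there (0.13, adjusted p = 0.0277, limma). Of the 17 called in OHT_Dox against Dox all 17 had the same sign in OHT against Ctrl. Over all genes tested, 90.9% of those called in OHT against Ctrl and likewise 90.85% of those called in OHT_Dox against Dox kept their sign in the other, close to the chaperones' shares. Across the 81 genes the 2 log2 changes had a Pearson correlation of 0.82 and a Spearman correlation of 0.71, against 0.69 and 0.54 over all 18674 genes tested. These are descriptions across genes, which are not independent replicates.

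**Figure D4:**
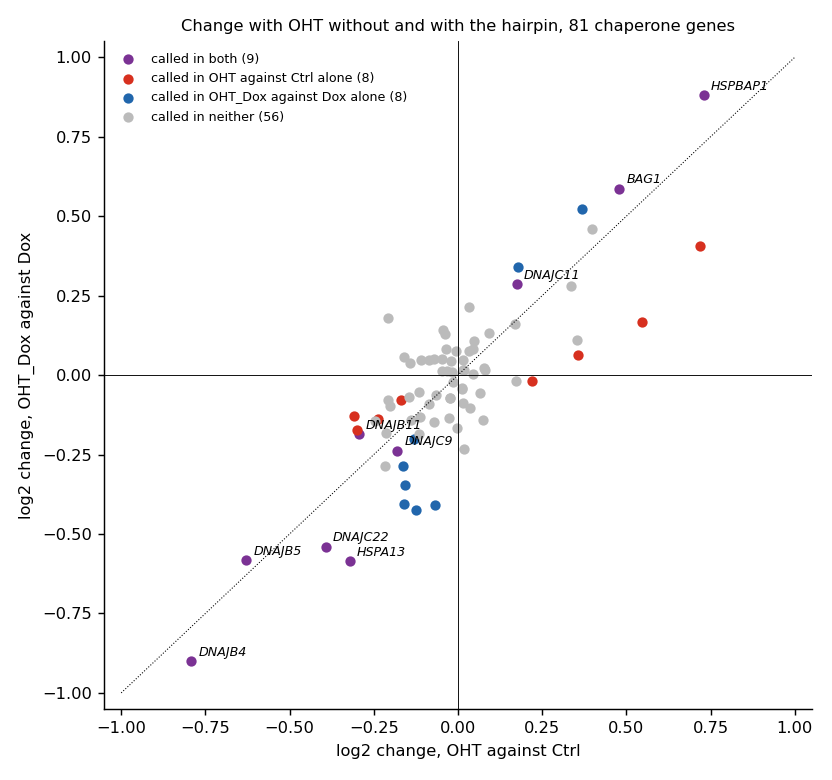
Log2 change with OHT without the hairpin (x axis, OHT against Ctrl) and with it (y axis, OHT_Dox against Dox); each point is 1 of the 81 genes and the dotted line marks equal change. Purple points are called in both, red in OHT against Ctrl alone, blue in OHT_Dox against Dox alone and grey in neither. The 9 purple genes, named on the plot, run from DNAJB4 at -0.79 and -0.90 to HSPBAP1 at 0.73 and 0.88.

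Few chaperone transcripts changed with Dox. In Dox against Ctrl 2 of the 81 genes rose and 2 fell, where 5.68% of all genes tested rose and 2.61% fell, and in OHT_Dox against OHT 1 rose and 2 fell, where 0.509% rose and 1.59% fell. The split of all genes tested depended on the method. In Dox against Ctrl edgeR called 515 of them higher and 804 lower, where limma called 1061 and 487. In OHT_Dox against OHT edgeR called 85 higher and 373 lower. Among the 81 genes TMM rescaling gave 2 higher and 4 lower, and edgeR 2 and 5, in Dox against Ctrl. Both gave 0 and 2 in OHT_Dox against OHT. Counts this small also moved with single libraries: in Dox against Ctrl there were 7 higher and 6 lower without Ctrl replicate 1, 0 and 1 without Ctrl replicate 2, without Ctrl replicate 3 or without Dox replicate 2, and 2 and 1 without Dox replicate 1 or without Dox replicate 3. The summed mesenchymal markers were also lower with the hairpin, at 3306 to 3529 CPM in OHT_Dox against 3893 to 4124 CPM in OHT, and at 3340 to 3536 CPM in Dox against 4070 to 4349 CPM in Ctrl. Of the 7 markers 4 fell and 1 rose in Dox against Ctrl, and 2 fell and 0 rose in OHT_Dox against OHT. Most of the summed level was VIM, at 2359 CPM in Dox against 2903 CPM in Ctrl. The epithelial and haematopoietic list, which is mostly KRT8 and KRT18, summed to 832 to 954 CPM in OHT_Dox against 1191 to 1249 CPM in OHT, and to 920.0 to 941 CPM in Dox against 1321 to 1448 CPM in Ctrl, with 2 of 4 genes called lower both times. For both lists their part in the chaperone values was not tested.

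HSPA1B, the stress-inducible HSP70 that cells make after heat shock, fell with the hairpin in both settings. It had 17.1, 15.4 and 15.8 CPM in Dox against 23.2, 23.7 and 23.6 CPM in Ctrl, and 21.1, 17.0 and 18.4 CPM in OHT_Dox against 24.5, 25.5 and 22.2 CPM in OHT. All 6 libraries with Dox were below all 6 without it, and the log2 changes were -0.53 ± 0.09 (SE), adjusted p = 0.00137 and -0.35 ± 0.09 (SE), adjusted p = 0.0327. The first passed under all 23 alternatives, and the second was lost without OHT replicate 1, OHT replicate 2, OHT_Dox replicate 2 or OHT_Dox replicate 3. HSPA1A, its near-identical copy, was listed at 0.514 ± 0.134 CPM for the OHT_Dox group, 0.758 ± 0.166 CPM for the OHT group, 0.669 ± 0.271 CPM for the Dox group and 0.862 ± 0.157 CPM for the Ctrl group (SD, n = 3 each), and how reads were shared between the copies is not given in the sources used here.

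DNAJB1, the J-protein that works with HSPA1B, fell in OHT_Dox against OHT (-0.36 ± 0.07 (SE), adjusted p = 0.00386), a call made under all 23 alternatives. The libraries given above for OHT_Dox, at 185 to 198 CPM, lay below those of OHT, at 225 to 268 CPM. Its log2 change in Dox against Ctrl was -0.18 ± 0.07 (SE), adjusted p = 0.0968, where edgeR gave an adjusted p of 0.0462. Other abundant members had negative values without a call by limma: in Dox against Ctrl HSPB1 changed by -0.28 ± 0.09 (SE), adjusted p = 0.0557, HSP90AA1 by -0.20 ± 0.07 (SE), adjusted p = 0.0922 and HSP90AB1 by -0.13 ± 0.06 (SE), adjusted p = 0.180. For these 3 genes edgeR gave adjusted p-values of 0.0374, 0.0493 and 0.0767, and DESeq2 called HSP90AB1 (adjusted p = 0.0469). HSPH1 and BAG3, which are heat-inducible as well, had positive values there (0.16 ± 0.06 and 0.05 ± 0.06, not called).

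BAG1, which rose with OHT, fell in Dox against Ctrl (-0.28 ± 0.08 (SE), adjusted p = 0.0367), with 15.4, 17.1 and 15.99 CPM in Dox against 19.7, 20.5 and 18.8 CPM in Ctrl. That call was lost without any single one of Ctrl replicates 2 and 3 and Dox replicates 1, 2 and 3. In OHT_Dox against OHT BAG1 changed by -0.17 ± 0.08 (SE), adjusted p = 0.355. HSPA4L rose in Dox against Ctrl (0.34 ± 0.07 (SE), adjusted p = 0.0112), with 101, 99.4 and 92.7 CPM in Dox against 85.2, 74.5 and 71.2 CPM in Ctrl, and DNAJC6 rose as well (0.44 ± 0.09 (SE), adjusted p = 0.0120). Both calls were lost without Ctrl replicate 2, Ctrl replicate 3 or Dox replicate 2. With OHT present these genes changed by 0.10 ± 0.07 and 0.07 ± 0.09. DNAJB11 rose in OHT_Dox against OHT (0.22 ± 0.06 (SE), adjusted p = 0.0432), a call that 15 of 23 alternatives did not make, including TMM rescaling and edgeR and the removal of any 1 library except Ctrl replicates 1 and 2.

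**Figure D5:**
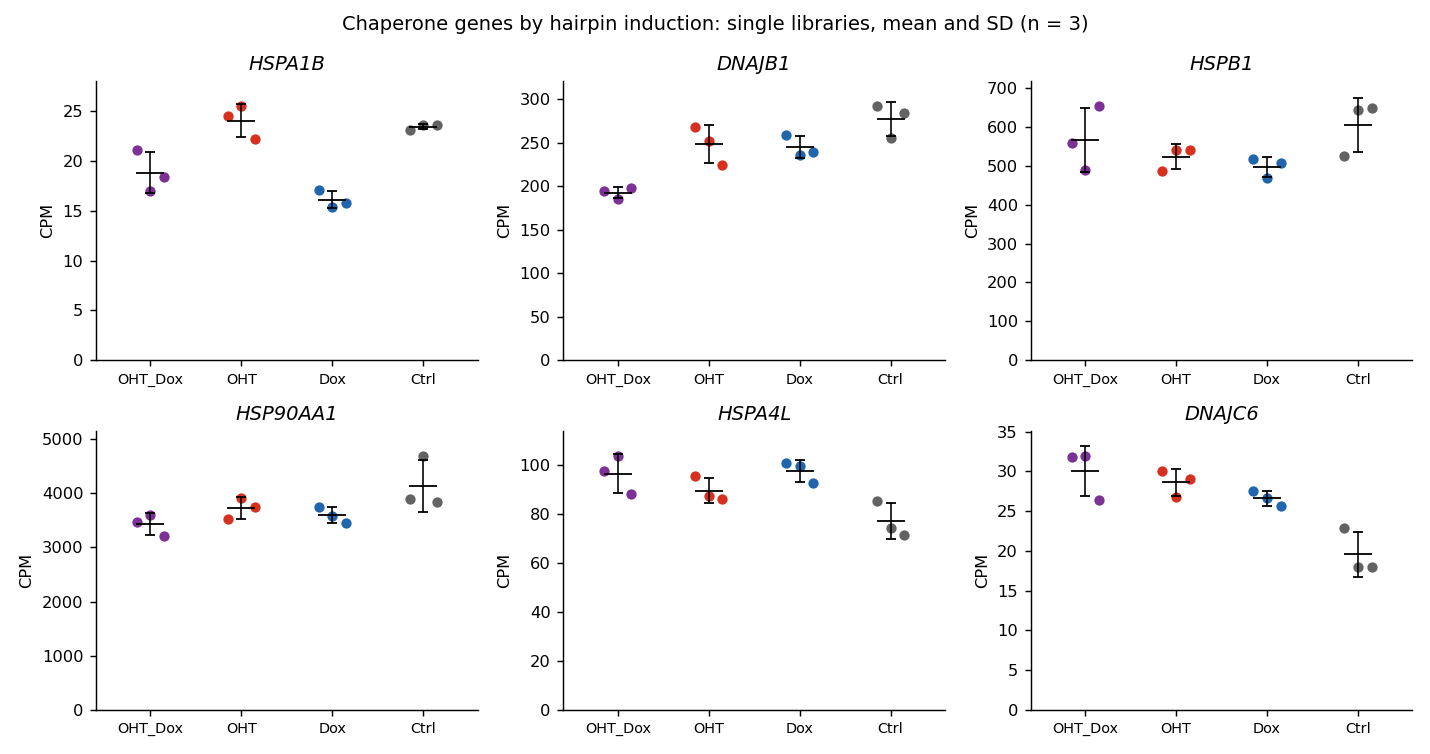
CPM (y axis, from 0) of HSPA1B, DNAJB1, HSPB1, HSP90AA1, HSPA4L and DNAJC6 by group (x axis); points are single libraries, and bars are the mean and SD of 3. HSPA1B is lower in all 6 libraries with Dox than in all 6 without, and the 3 lowest DNAJB1 values are those of OHT_Dox.

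Whether the change with OHT differs between the backgrounds was tested directly as (OHT_Dox minus Dox) minus (OHT minus Ctrl). None of the 81 genes passed by limma, edgeR or DESeq2, and 0.0% of all genes tested were called by limma. At an unadjusted p below 0.05 there were 8: HSPB1 was positive (0.39 ± 0.13 (SE), adjusted p = 0.221), and DNAJC6 (-0.38 ± 0.13 (SE), adjusted p = 0.227), BAG5 (-0.29 ± 0.11), DNAJC13 (-0.34 ± 0.14), HSPA13 (-0.26 ± 0.11), DNAJC10 (-0.21 ± 0.09), DNAJB14 (-0.30 ± 0.13) and HSPA4L (-0.24 ± 0.10) were negative. Without Ctrl replicate 1 HSPB1 (0.49, adjusted p = 0.0278), DNAJC6 (-0.49, adjusted p = 0.0281) and DNAJC13 (-0.46, adjusted p = 0.0317) passed in limma. HSPB1 had 559.6, 488 and 653 CPM in the OHT_Dox libraries, 486, 541 and 542 CPM in the OHT libraries, 517, 468 and 507 CPM in the Dox libraries and 526, 643 and 649 CPM in the Ctrl libraries. Its lowest Ctrl library is replicate 1 and its highest OHT_Dox library is replicate 3, which had the strongest deviation with GC content.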

How the data were processed

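Poly(A) RNA of 12 SHEP libraries (4 groups of 3) was sequenced from a directional kit, per the labels' protocols. The values deposited by the authors are CPM for 28576 genes, each library summing to 1000000. The submitters' processing notes list, with no role, STAR, Bowtie, Bowtie2, DRAGEN, featureCounts and FastQC, and as builds mm10 and hg19; annotation and strand setting are not given in the sources used here. All deposited CPM values (100%) were whole multiples of 1 read within a tolerance of 0.01 reads, so whole counts were recovered, 44466458 to 57694970 a library, and served edgeR and DESeq2 as alternatives. The fit was tested on simulated data.

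The 18674 genes that reached 0.5 CPM in 3 or more libraries were fitted on log2(CPM + 0.5) with limma 3.58.1 (R 4.3.3), 1 mean per group, empirical Bayes with a mean trend. Tests were two-sided, and adjustment was by Benjamini-Hochberg across these 18674 genes, with a call below 0.05. Changes are on that scale, which understates those of genes at a few CPM. Alternatives were other pseudocounts, filters and scalings, a replicate block, leaving out libraries, removal of GC and length trends, edgeR 4.0.16 and DESeq2 1.42.0. GENCODE release 29 gave lengths and overlaps (28572 genes matched), and RefSeq the promoters. Its build differs from that of the notes, so coordinates belong to the RefSeq sequences only.

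The genes and lists were chosen with earlier results of these data known. Named in the text are the TRiC, HSP60, HSP90 and main HSP70, DNAJ and BAG genes, and in each contrast the called members of smallest p (up to 10 each way, at least 5 CPM in the higher group), with 2 genes per pathway list.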

Additional observations from a re-analysis of the deposited data

Results flagged for a closer look

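In 2 genes every library of the hairpin groups moved one way without OHT and the other way with it, which is 2.47% of the 81 genes, against 170 of all 18674 genes tested (0.91%). AHSA1, the activator of the HSP90 ATPase, had 328, 324 and 325 CPM in OHT_Dox against 304, 323 and 322 CPM in OHT, and 327, 309 and 309 CPM in Dox against 328, 336 and 344 CPM in Ctrl. The log2 change with Dox was 0.04 ± 0.05 with OHT and -0.09 ± 0.05 without it, and the difference between them was 0.1349 (adjusted p = 0.343, limma), which did not pass. DNAJB2 had 35.5, 34.0 and 36.5 CPM in OHT_Dox against 31.9, 33.5 and 33.0 CPM in OHT, and 36.2, 39.9 and 39.9 CPM in Dox against 40.2, 40.7 and 41.3 CPM in Ctrl. Its change with Dox was 0.11 ± 0.06 with OHT and -0.08 ± 0.06 without it, and the difference of 0.1811 did not pass (adjusted p = 0.339, limma).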

How the results depend on the processing

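Of 38 called results of named genes, 24 passed under all 23 alternatives and 14 were lost under at least 1; the cause was not tested. With OHT against Ctrl every alternative count was within 1.5 times of the 7 higher and 10 lower reported, with a range of 5 to 9 and 8 to 14 when 1 library was left out. For OHT_Dox against Dox the 5 higher became 9 under TMM, median-of-ratios rescaling and removal of GC and length trends, and 10 under edgeR and DESeq2 (4 to 7 without 1 library), and the 12 lower ranged from 10 to 13 without 1 library. For Dox against Ctrl the 2 higher became 6 with the replicate block (0 to 7 without 1 library), and the 2 lower became 1 with no filter on low values, 4 under TMM, median-of-ratios rescaling and removal of GC and length trends, 5 with the replicate block and under edgeR and 7 under DESeq2 (1 to 6 without 1 library). For OHT_Dox against OHT the 1 higher became 0 with no filter, under TMM, median-of-ratios rescaling and edgeR, and without Dox replicate 1 and OHT_Dox replicate 3 together, and 2 with GC and length trends removed (0 to 1 without 1 library), and the 2 lower became 1 without that pair (1 to 2 without 1 library). The interaction went from 0 to 3 without Ctrl replicate 1 and was 0 otherwise (0 to 3). The median change of the TRiC subunits moved by less than the typical SD between replicates of 1 subunit throughout. That is a wide bound for a median over 8 genes. In Dox against Ctrl, where the TRiC median was -0.03, TMM rescaling moved the median of all genes from 0.05 to 0.01. HSPA4L changed sign in OHT_Dox against Dox with GC and length trends removed, at 0.1298 (adjusted p = 0.0277, limma), a setting added after the data were seen. Whether the replicate numbers pair the libraries is not given in the labels and was not settled here. The deviations of same-numbered libraries correlated at -0.17 to 0.33, above 0.1 in 7 of 18 pairs. Those of differently numbered libraries of different groups correlated at -0.26 to 0.28. A replicate block made 12 of 220 results of named genes stronger and 0 weaker. With the replicate block the counts were 10 higher and 12 lower (OHT against Ctrl), 7 and 14 (OHT_Dox against Dox), 6 and 5 (Dox against Ctrl), 1 and 2 (OHT_Dox against OHT) and 0 (interaction). TMM rescaling moved the median of all genes by under 0.1 in every contrast. Small shifts still matter for the split of calls over all genes tested. In Dox against Ctrl it was 1061 higher and 487 lower in limma and 515 and 804 in edgeR. Depth limits the genes below 5 CPM.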
